A study of Oryza sativa with 12 samples.

Results

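The nitrate and ammonium uptake transporters described here are 7 loci of the rice genome, taken by their locus identifiers with every transcript annotated for them. They are the ammonium transporters AMT1.1 (Os04t0509600, also written with a semicolon in place of the point), AMT1.2 (Os02t0620500) and AMT1.3 (Os02t0620600), the nitrate carriers NRT2.1 (Os02t0112100), NRT2.2 (Os02t0112600) and NRT2.3 (Os01t0704100), and their partner protein NAR2.1 (Os02t0595900). Together they have 9 transcripts of the 42081 transcripts, and 7 of the 34791 loci, in the table. All 9 transcripts passed the filter on low counts in each model fitted.

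Root transcripts were sequenced in 12 libraries, 2 for each of 3 genotypes at each of 2 stages. The genotypes were the paternal line R9308, the maternal line Xieqingzao B and their F1, the super-hybrid Xieyou9308, which is called the hybrid below. Plants of all groups were started in the field and moved as seedlings onto floats over a pool of nutrient solution, where they stayed until the tillering stage (while side shoots form) or the heading stage (when the panicle emerges). Each library is from 1 of 2 roots taken per genotype and stage. The p-values of the fold changes rest on the spread between such pairs of roots, pooled over all groups of a fit. That spread is also shared in part across transcripts, and no other source of spread is covered. The nitrogen supply, the plants' age at each stage and the time of day of sampling were not given in the sources used here, and the stage cannot be told apart from the age of the plants and their time in the solution.

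Plant roots take nitrogen up as nitrate and as ammonium, each through high-affinity and low-affinity transporters in the plasma membrane. The AMT1 proteins carry ammonium with high affinity, and rice makes several of them mainly in roots. The NRT2 proteins carry nitrate with high affinity, and most of them need the small NAR2 protein to reach the membrane and to work. Transcripts of such transporters are known to respond to the nitrogen form supplied, to the nitrogen status of the plant and to light and sugars.

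The descriptions in the table placed all 7 loci in these families, but under other names in several cases. NRT2.1 and NRT2.2 were both described as similar to BCH2, a nitrate carrier of barley, transcript Os01t0704100-02 of NRT2.3 as similar to NRT2.5, and transcript Os04t0509600-01 of AMT1.1 as similar to an Amt1 fragment with the number of the second member, as was AMT1.2 itself. The symbols used here are those of the rice literature. NRT2.1 and NRT2.2 are near-identical neighbours on the chromosome, so how reads were split between them is uncertain, and their sum is given as well. AMT1.2 and AMT1.3 are also neighbours of similar sequence. AMT1.1 and NRT2.3 have 2 annotated transcripts each, whose shared reads were divided by the counting program.

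Assigned counts per library ranged from 8209696 to 15830233. Over the 28434 transcripts with enough counts for a test at tillering, the 2 hybrid libraries of that stage agreed less (r2 = 0.686 over log2(RPKM + 1), across transcripts) than the libraries of any of the other 5 groups (0.835 to 0.925). Root markers were present in all 12 libraries, with a summed level of the 4 markers between 514 and 1820 RPKM (reads scaled to the length of the transcript and to the assigned counts of the library). Transcripts of green tissue, 15 transcripts of the Rubisco small subunit and of chlorophyll-binding proteins, summed to 4150 RPKM in replicate 1 of R9308 at tillering, to between 3.64 and 23.6 RPKM in the other 5 tillering libraries, to 2.59 and 4.68 RPKM in R9308, to 33.2 and 102 RPKM in Xieqingzao B and to 207 and 95.4 RPKM in the hybrid at heading. For the stage, interaction and tillering tests of the members, some values without replicate 2 of the hybrid at tillering are therefore given as well. Stage differences without replicate 1 of R9308 at tillering are given for NRT2.1 and NRT2.2. Medians over the members, counts of transcripts without overlap and tests of other genes are given with all libraries only. In whole roots, fewer cells of a type and less RNA per cell cannot be told apart.

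At heading the roots of R9308 and the hybrid had many times the NRT2 and NAR2.1 level they had at tillering, and the values of Xieqingzao B differed less between the stages. None of these stage differences passed the test with all libraries included, as set out after the levels. NRT2.1 (Os02t0112100-00), a main high-affinity nitrate carrier of rice roots, had 8.04 and 4.08 RPKM in the 2 R9308 libraries at tillering, 13.6 and 12.2 RPKM in Xieqingzao B, and 11.2 and 0 RPKM in the hybrid. At heading it had 197 and 153 RPKM in R9308, 18.8 and 16.4 RPKM in Xieqingzao B, and 95.4 and 76.4 RPKM in the hybrid. In each genotype both heading libraries lay above both tillering libraries, and at heading the 3 genotypes did not overlap. R9308 was highest, the hybrid in the middle and Xieqingzao B lowest. The gap between the stages was narrow in Xieqingzao B, whose heading libraries lay just above the highest tillering library of any genotype.

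NRT2.2 (Os02t0112600-01), the close copy of NRT2.1, followed the same order. Its levels at tillering were 18.2 and 20.4 RPKM in R9308, 29.7 and 19.3 RPKM in Xieqingzao B, and 7.42 and 0.311 RPKM in the hybrid. At heading they were 292 and 149.9 RPKM in R9308, 34.4 and 51.9 RPKM in Xieqingzao B, and 128 and 115 RPKM in the hybrid. The genotypes again did not overlap at heading. At tillering the parents overlapped and both hybrid libraries were lower. With NRT2.1 and NRT2.2 added, which removes the question of how their reads were split, the heading levels were 396 ± 131 RPKM (SD, n = 2) in R9308, 60.7 ± 10.7 RPKM in Xieqingzao B and 207 ± 22.3 RPKM in the hybrid.

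NRT2.3, which in rice is known for moving nitrate from root to shoot, was measured almost wholly by transcript Os01t0704100-02. This transcript had 19.2 and 9.18 RPKM in R9308, 12.2 and 10.8 RPKM in Xieqingzao B and 9.33 and 0.589 RPKM in the hybrid at tillering. At heading the values were 225 and 104 RPKM in R9308, 104 and 46.5 RPKM in Xieqingzao B, and 168 and 114 RPKM in the hybrid. All 6 heading libraries lay above all 6 tillering libraries, while at heading the hybrid overlapped with R9308 but not with Xieqingzao B. The second transcript, Os01t0704100-01, stayed between 0 and 5.47 RPKM in all 12 libraries (0 to 115 counts).

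NAR2.1 (Os02t0595900-00), the partner protein that NRT2.1, NRT2.2 and an isoform of NRT2.3 are known to need, had the highest mean level of all members over the 12 libraries (108.5 RPKM). At tillering it had 27.4 and 24.4 RPKM in R9308, 56.4 and 56.2 RPKM in Xieqingzao B, and 39.4 and 0.936 RPKM in the hybrid. At heading it had 348 and 136 RPKM in R9308, 103 and 92.5 RPKM in Xieqingzao B, and 229 and 188 RPKM in the hybrid. Each genotype was higher at heading without overlap. At tillering Xieqingzao B lay above both other genotypes, and at heading it lay below them.

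Among the ammonium transporters, the mean levels of AMT1.1 and AMT1.3 at the 2 stages were closer than those of the nitrate carriers in R9308 and the hybrid. In Xieqingzao B this held against the NRT2.3 transcripts alone, whose fitted differences were 6.33-fold for Os01t0704100-02 and 3.69-fold for Os01t0704100-01. The fitted differences there were 2.14-fold for AMT1.1 and 1.77-fold for AMT1.3 against 1.32-fold for NRT2.1 and 1.71-fold for NRT2.2. AMT1.2 differed by 7.43-fold or more in each genotype, and whether the families differ was not tested. AMT1.1 (Os04t0509600-01), the most abundant AMT1 transcript, had 52.1 and 33.0 RPKM in R9308, 40.8 and 34.3 RPKM in Xieqingzao B and 29.2 and 17.8 RPKM in the hybrid at tillering. At heading it had 64.7 and 68.2 RPKM in R9308, 99.9 and 66.4 RPKM in Xieqingzao B, and 70.6 and 72.9 RPKM in the hybrid. All 6 heading libraries lay above all 6 tillering libraries. Its second transcript, Os04t0509600-02, ranged from 4.86 to 33.9 RPKM with no such order, and the 2 libraries of a group differed by up to 33.9 against 4.99 RPKM in Xieqingzao B at heading. With both transcripts summed, AMT1.1 had 41.62 and 46.74 RPKM in the hybrid at tillering and 80.45 and 79.75 RPKM at heading.

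AMT1.2 (Os02t0620500-00), a high-affinity carrier of roots that is known to be induced by ammonium, was near 0 at tillering. It had 1.77 and 1.35 RPKM (28 and 32 counts) in R9308, 0.855 and 1.1 RPKM (15 counts each) in Xieqingzao B, and 0.732 and 0 RPKM (9 and 0 counts) in the hybrid. At heading it had 12.1 and 9.98 RPKM in R9308, 21.7 and 7.24 RPKM in Xieqingzao B, and 3.73 and 3.88 RPKM in the hybrid. Every heading library was above every tillering library, and at heading the hybrid lay below both parents, which overlapped.

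AMT1.3 (Os02t0620600-01), a root gene known to be raised when nitrogen is short, had 12.1 and 9.68 RPKM in R9308, 12.9 and 27.2 RPKM in Xieqingzao B, and 14.3 and 0.601 RPKM in the hybrid at tillering. At heading it had 22.0 and 19.4 RPKM in R9308, 41.4 and 31.9 RPKM in Xieqingzao B, and 8.52 and 9.89 RPKM in the hybrid. Both parents were higher at heading than at tillering without overlap, whereas the heading levels of the hybrid lay between its 2 tillering libraries. At heading the order from high to low was Xieqingzao B, R9308 and the hybrid, with no overlap. For NRT2.1 and NRT2.2 it was R9308, the hybrid and Xieqingzao B.

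**Figure D1:**
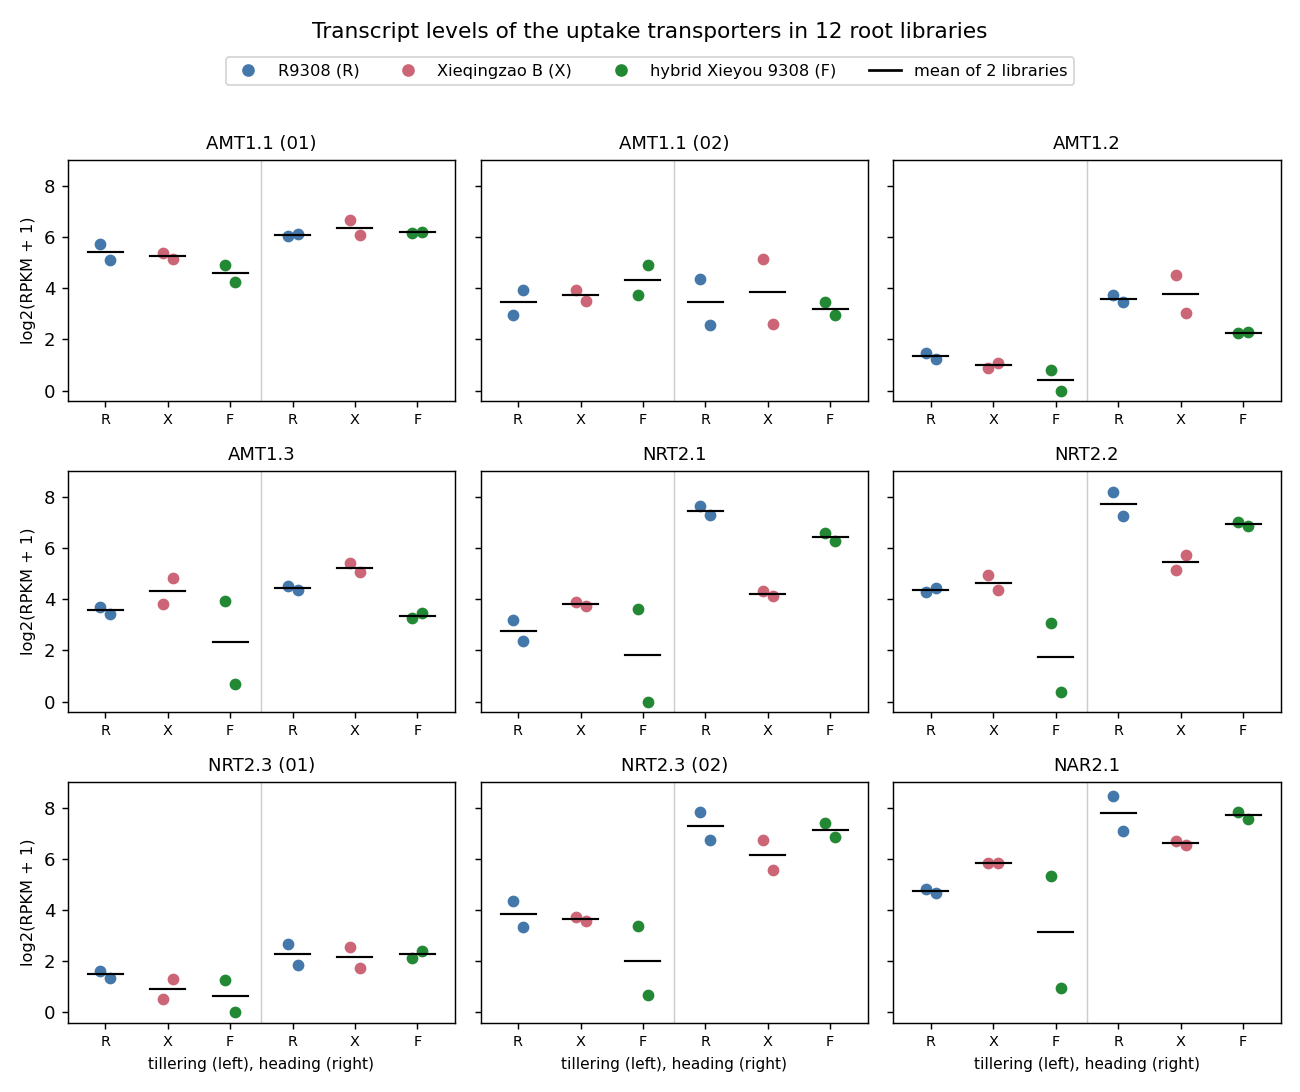
Levels of the 9 transcripts as log2(RPKM + 1) on the y axis for each of the 12 libraries, grouped on the x axis by genotype and stage (points, libraries; bars, mean of the 2 libraries). NRT2.1, NRT2.2, NRT2.3 (02) and NAR2.1 are at their highest in R9308 and the hybrid at heading, among the heading groups AMT1.2 and AMT1.3 are lowest in the hybrid, and 1 hybrid library at tillering has values near 0 for 7 of the 9 transcripts.

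Counted over the 9 transcripts, both heading libraries lay above both tillering libraries for 8 transcripts in each parent and 7 in the hybrid. Among all 29560 transcripts tested, this was so for 24.0% in R9308, 29.7% in Xieqingzao B and 25.7% with the hybrid. The exception in the parents was the second transcript of AMT1.1, and in the hybrid that transcript and AMT1.3. The median log2 difference between the stages was 2.89 over the members in R9308, 3.45 in the hybrid and 0.82 in Xieqingzao B, against -0.09, -0.01 and 0.0 over all transcripts tested.

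Despite these sizes, none of the members was called between the stages when all 12 libraries were fitted together with edgeR's quasi-likelihood test. A call needed a Benjamini-Hochberg adjusted p of at most 0.05 and a log2 fold change of at least 1. This was 0 of 9 in R9308, where 1.2% of all transcripts were called, 0 of 9 in Xieqingzao B (0.088% called) and 0 of 9 in the hybrid (1.68% called). In R9308 the log2 difference was 4.93 ± 1.55 (SE, adjusted p = 0.134) for NRT2.1, 3.59 ± 1.05 (0.118) for NRT2.2, 3.62 ± 1.07 (0.121) for NRT2.3, 3.30 ± 1.24 (0.186) for NAR2.1 and 2.89 ± 1.0 (0.163) for AMT1.2. In the hybrid the values nearest the threshold were those of AMT1.1 by transcript Os04t0509600-01 at 1.72 ± 0.35 (adjusted p = 0.0505), NRT2.2 at 5.08 ± 1.14 (0.0585) and NRT2.3 at 4.93 ± 1.15 (0.0618). In Xieqingzao B, NRT2.1, NRT2.2 and NAR2.1 differed by 0.40 ± 1.32, 0.77 ± 0.96 and 0.75 ± 1.14. NRT2.3 (Os01t0704100-02) differed there by 2.66 ± 1.03 (adjusted p = 0.21) and AMT1.2 by 3.83 ± 1.06 (adjusted p = 0.113).

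The calls depended on the unlike pair of hybrid libraries at tillering. Without replicate 2 of the hybrid at tillering, 5 members were called higher at heading in R9308, where 2.57% of 31085 transcripts were called higher. They were NRT2.1 at 4.94 ± 0.37 (adjusted p = 0.00646, range over all alternatives 0.00575 to 0.382), NRT2.2 at 3.59 ± 0.41 (0.0148, range 0.00348 to 0.363), NRT2.3 by its transcript Os01t0704100-02 at 3.63 ± 0.59 (0.0244, range 0.00311 to 0.35), NAR2.1 at 3.31 ± 0.43 (0.0179, range 0.0179 to 0.46) and AMT1.2 at 2.90 ± 0.52 (0.0284, range 0.0154 to 0.438). The estimates moved by 0.01 or less against the fit of all libraries, and their errors were smaller. Leaving out replicate 1 of that pair in place of replicate 2 gave the same counts in R9308 and Xieqingzao B. More members were then called in the hybrid, represented at tillering by the low library alone. The share of all transcripts called in that fit is not given. In Xieqingzao B AMT1.2 alone was called, at 3.83 ± 0.55 (adjusted p = 0.0332, range 0.00104 to 0.443), where 1.36% of all transcripts were called higher. In the hybrid, represented at tillering by replicate 1 alone, none was called. NRT2.1 was at 3.00 ± 0.45 and NRT2.2 at 4.10 ± 0.58 (adjusted p = 0.0812 each), NRT2.3 at 3.99 ± 0.82 (0.112) and AMT1.1 at 1.36 ± 0.35 (0.143). Without replicate 1 of R9308 at tillering, the library with the green-tissue transcripts, the log2 differences in R9308 were 5.48 for NRT2.1 and 3.49 for NRT2.2, and no member was called in any genotype. DESeq2's Wald test on all libraries called 5 members in R9308, 3 in the maternal line and 6 in the hybrid. Here and below, the share of all transcripts called by DESeq2 is not given. Its counts therefore cannot be set against the shares of the edgeR fits.

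**Figure D2:**
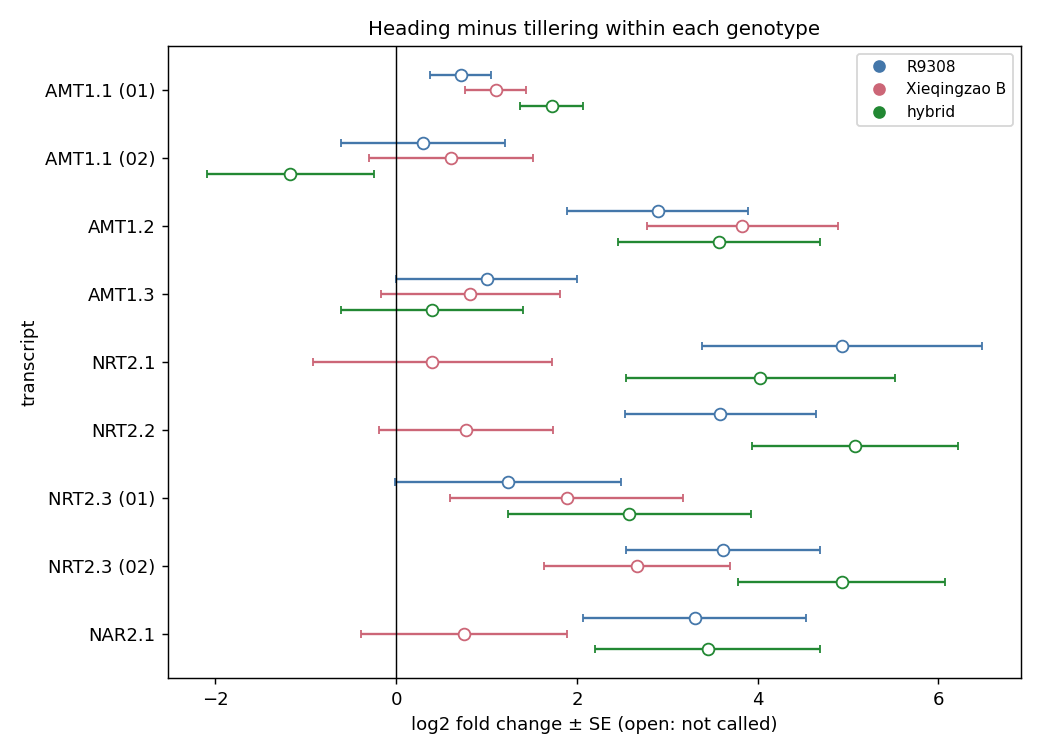
Log2 fold change of heading over tillering (x axis, ± SE from edgeR's quasi-likelihood test over all 12 libraries) for each of the 9 transcripts (y axis) in R9308, Xieqingzao B and the hybrid. All points are open because none was called. For NRT2.1, NRT2.2 and NAR2.1 the Xieqingzao B points lie below 1 and those of the other genotypes above 3.

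Whether the stage difference itself differed between genotypes was tested as an interaction in the same fit. The call count was 0 of 9 for the hybrid against R9308, 0 of 9 for the hybrid against Xieqingzao B and 0 of 9 for Xieqingzao B against R9308. Over all 29560 transcripts 0.0% were called in each of these comparisons, although 4666, 4486 and 3668 transcripts had an unadjusted p under 0.05. For NRT2.1 the stage difference in Xieqingzao B minus that in R9308 was -4.53 ± 1.95 on the log2 scale (adjusted p = 0.395). Without replicate 2 of the hybrid at tillering it was -4.54 ± 0.46 and passed the threshold (edgeR adjusted p = 0.0494, range over all alternatives 0.0494 to 0.792), the single member called there, where 0.0193% of all transcripts were called lower. NRT2.2 and NAR2.1 gave -2.82 ± 0.54 (adjusted p = 0.0952) and -2.56 ± 0.57 (0.117) in the same fit. For the hybrid minus Xieqingzao B, NRT2.1 and NRT2.2 gave 3.63 ± 1.93 and 4.31 ± 1.42 with all libraries, and 2.61 ± 0.52 (adjusted p = 0.159) and 3.33 ± 0.65 (0.155) without replicate 2 of the hybrid. DESeq2 called 1 member, NRT2.2, for the hybrid against Xieqingzao B.

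Among tillering roots, no member was called between genotypes. The call count was 0 of 9 for the hybrid against R9308 (0.0106% of all 28434 transcripts called), 0 of 9 for the hybrid against Xieqingzao B (0.0% called, with 2438 at an unadjusted p under 0.05) and 0 of 9 for Xieqingzao B against R9308 (0.0246% called). It stayed at 0 under each alternative, DESeq2 and every left-out library included. The log2 difference of NRT2.2 was -2.34 ± 1.25 (adjusted p = 0.378) between the hybrid and R9308 and -2.65 ± 1.26 (0.624) between the hybrid and Xieqingzao B. Without replicate 2 of the hybrid these were -1.37 ± 0.39 (adjusted p = 0.274) and -1.68 ± 0.40 (0.423). NAR2.1, whose 2 parental groups did not overlap, gave 1.08 ± 1.37 (adjusted p = 0.963) for Xieqingzao B minus R9308.

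The 2 hybrid libraries of this stage held the members at very unequal levels. Relative to depth, replicate 2 was at least 8-fold below replicate 1 for 6 of the 9 transcripts, as were 3.26% of all transcripts tested. NRT2.1 had 177 counts in replicate 1 and 0 in replicate 2, at least a 90.3-fold difference when 0 is taken as 3 counts. NAR2.1 had 495 and 18 counts (42.1-fold), NRT2.2 109 and 7 (23.8-fold), AMT1.3 217 and 14 (23.7-fold) and transcript Os01t0704100-02 of NRT2.3 145 and 14 (15.9-fold). The second NRT2.3 transcript had 23 and 0 counts, at least 11.7-fold. AMT1.2, with 9 and 0 counts, was too low to be compared beyond at least 4.59-fold.

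AMT1.1 did not share this. Its transcript Os04t0509600-01 had 490 and 456 counts, 1.64-fold lower in replicate 2 relative to depth, and Os04t0509600-02 was 2.34-fold higher there. The second transcript took 58.5% of the AMT1.1 counts in that library (95% Wilson interval 55.6 to 61.4%, counting error only), against 5.81% to 27.2% in the other 11 libraries. In the same library the root glutamine synthetase GS1.2 (Os03t0223400-01) had 9.34 RPKM against 218 RPKM in replicate 1, and the root marker RCc3 had 972 RPKM against 487 RPKM. Green-tissue transcripts summed to 23.6 RPKM there and 3.64 RPKM in replicate 1. The part of these differences in the members' values was not tested.

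At heading NRT2.1 and NRT2.2 were lower in Xieqingzao B than in R9308, NRT2.1 was higher in the hybrid than in Xieqingzao B, and AMT1.3 was lower in the hybrid than in Xieqingzao B. In Xieqingzao B against R9308, 2 of 9 members were called, both lower in Xieqingzao B, where 10.8% of all 27187 transcripts were called and 6.36% were called lower. NRT2.1 was 10.9-fold lower (log2 -3.44 ± 0.25, adjusted p = 0.0031 by edgeR's quasi-likelihood test) and NRT2.2 5.59-fold lower (-2.48 ± 0.40, adjusted p = 0.0193). NAR2.1 at -1.44 ± 0.45 (adjusted p = 0.106) and NRT2.3 at -1.25 ± 0.54 (0.204) had the same sign without passing. AMT1.3 gave 0.70 ± 0.21 (adjusted p = 0.0912), and AMT1.1 and AMT1.2 differed by 0.20 ± 0.23 and 0.27 ± 0.51.

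In the hybrid against Xieqingzao B, 2 of 9 members were called, where 8.1% of all transcripts were called, 5.35% higher and 2.75% lower. NRT2.1 was 5.37-fold higher in the hybrid (log2 2.42 ± 0.24, adjusted p = 0.0108) and AMT1.3 was 3.64-fold lower (-1.86 ± 0.21, adjusted p = 0.0145). NRT2.2 at 1.63 ± 0.38 (adjusted p = 0.0594) and AMT1.2 at -1.80 ± 0.54 (0.0982) came next. NAR2.1 gave 1.23 ± 0.45 (0.148) and NRT2.3 1.04 ± 0.54 (0.265). AMT1.1 differed by -0.08 ± 0.23.

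In the hybrid against R9308, 0 of 9 members were called, where 0.886% of all transcripts were called. AMT1.3 gave a log2 difference of -1.16 ± 0.21 (adjusted p = 0.0906), AMT1.2 gave -1.53 ± 0.54 (0.266), NRT2.1 -1.02 ± 0.23 (0.126) and NRT2.2 -0.86 ± 0.38 (0.354). NAR2.1 and NRT2.3 differed by -0.21 ± 0.45 and -0.21 ± 0.53. DESeq2 called AMT1.3 and NRT2.1 in this comparison, and with the transcripts of each locus summed edgeR called AMT1.3 (adjusted p = 0.0455, range over all alternatives 0.000804 to 0.803). The comparisons of the hybrid with either parent share the hybrid libraries.

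Both hybrid libraries lay between the parents without overlap for 2 of the 9 transcripts, NRT2.1 and NRT2.2, as for 11.5% of all transcripts tested at heading. Both lay below all 4 parental libraries for AMT1.2 and AMT1.3, 2 of 9, as for 14.6% of all transcripts. None lay above all 4 parental libraries, against 10.6% of all transcripts. Whether the position of the hybrid differs between the 2 kinds of transporter was not tested.

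The calls at heading depended on few libraries. Leaving out either hybrid library ended both calls in the hybrid against Xieqingzao B, with NRT2.1 at 2.23 without replicate 1 and 2.60 without replicate 2, and AMT1.3 at -1.78 and -1.95. The call of NRT2.2 in Xieqingzao B against R9308 ended without replicate 1 of R9308 (-1.92), without replicate 1 of Xieqingzao B (-2.22) and without either hybrid library (-2.49 each), while that of NRT2.1 held without each heading library in turn. In a fit of all 12 libraries together, none of the 4 heading calls passed. With NRT2.1 and NRT2.2 summed, the pair was 2.85 lower on the log2 scale in Xieqingzao B than in R9308 (-2.85 ± 0.31, adjusted p = 0.00811) and 1.92 ± 0.30 higher in the hybrid than in Xieqingzao B (adjusted p = 0.0255).

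**Figure D3:**
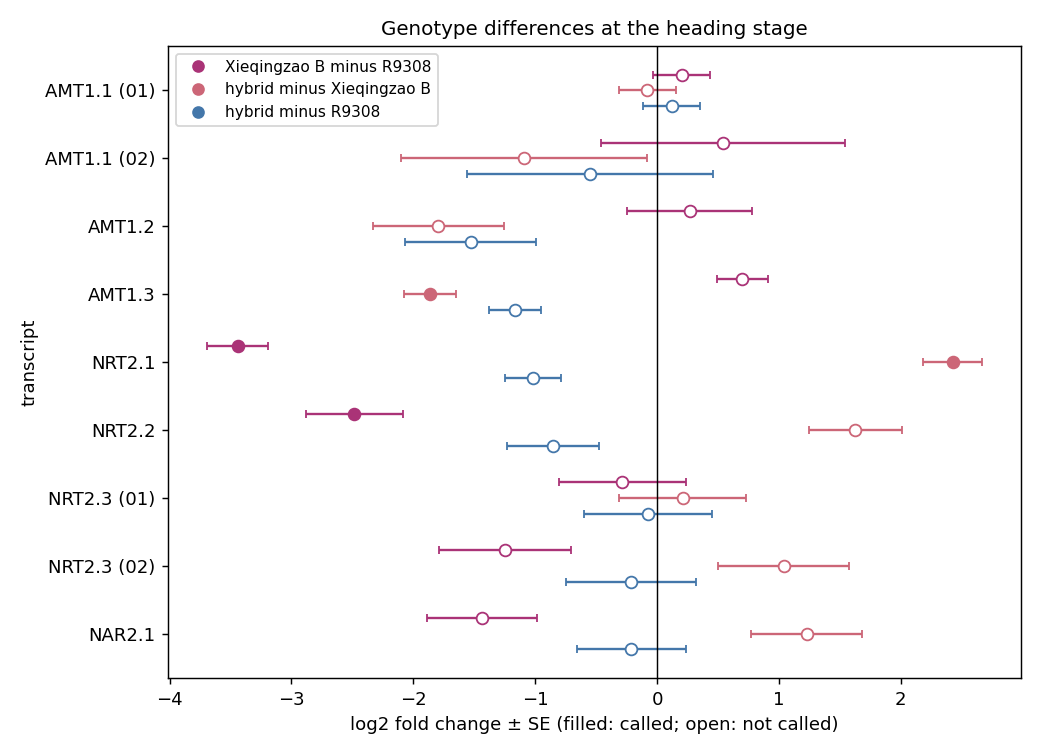
Log2 fold change ± SE (x axis) of each of the 9 transcripts (y axis) between the genotypes at heading, from edgeR's quasi-likelihood test. Filled points were called, NRT2.1 in both comparisons with Xieqingzao B, NRT2.2 for Xieqingzao B minus R9308 and AMT1.3 for the hybrid minus Xieqingzao B, and open points were not.

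Other transcripts differed between the same heading libraries. LHY (Os08t0157600-01), a clock gene whose transcript peaks around dawn, had 68.3 and 79.1 RPKM in R9308, 162 and 163 RPKM in Xieqingzao B and 20.1 and 16.3 RPKM in the hybrid. PRR1 (Os02t0618200-01), a clock gene of the evening, had 63.8 and 59.4 RPKM, 26.0 and 22.1 RPKM, and 64.1 and 67.9 RPKM in the same order. LHY was called between each pair of genotypes, and PRR1 between Xieqingzao B and each of the others. Of the 13 clock transcripts tested at heading, 1 was called higher and 3 were called lower in the hybrid than in Xieqingzao B, the 3 all from LHY. Over all transcripts these shares were 5.35% higher and 2.75% lower. Of 10 green-tissue transcripts tested, 2 were called higher in the hybrid and 3 in Xieqingzao B than in R9308, and between the hybrid and Xieqingzao B 1 was called higher and 1 lower. Of all transcripts, 0.886% were called between the hybrid and R9308 and 10.8% between Xieqingzao B and R9308, in either direction. The part of clock and green-tissue transcripts in the members' differences was not tested.

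Summed over their loci, the NRT2 carriers lay below the AMT1 transporters in every tillering library and well above them in the heading libraries of R9308 and the hybrid. The NRT2 sum at tillering was 47.6 and 35.2 RPKM in R9308, 55.9 and 43.8 RPKM in Xieqingzao B and 29.4 and 0.900 RPKM in the hybrid. At heading it was 719 and 410.0 RPKM in R9308, 162 and 117 RPKM in Xieqingzao B and 394 and 310.0 RPKM in the hybrid. The AMT1 sum ranged from 47.3 to 73.0 RPKM over the 6 tillering libraries. At heading it was 110.5 ± 11.4 RPKM in R9308, 154 ± 61.0 RPKM in Xieqingzao B and 93.1 ± 0.575 RPKM in the hybrid (SD, n = 2).

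The ratio of the NRT2 sum to the AMT1 sum stayed below 1 in all 6 tillering libraries, between 0.019 and 0.81. At heading it was 6.07 and 4.0 in R9308, 4.25 and 3.31 in the hybrid, and 0.825 and 1.06 in Xieqingzao B. R9308 and the hybrid overlapped, and Xieqingzao B lay just above the tillering range.

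By share of the sums, NRT2.1 made 27.5% and 37.4% of the NRT2 sum in R9308 at heading, 24.2% and 24.7% in the hybrid and 11.6% and 14.0% in Xieqingzao B. Xieqingzao B at heading carried 67.3% and 41.7% of its NRT2 sum as NRT2.3, against 32.0% and 26.1% in R9308 and 43.4% and 38.2% in the hybrid. Within the AMT1 sum, AMT1.1 made 86.8% and 85.3% in the hybrid at heading, 71.2% and 71.3% in R9308 and 68.0% and 64.6% in Xieqingzao B. The hybrid thus lay above both parents in the AMT1.1 share, and its AMT1.3 share of 9.19% and 10.6% lay below the parental range of 18.6% to 28.9%.

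**Figure D4:**
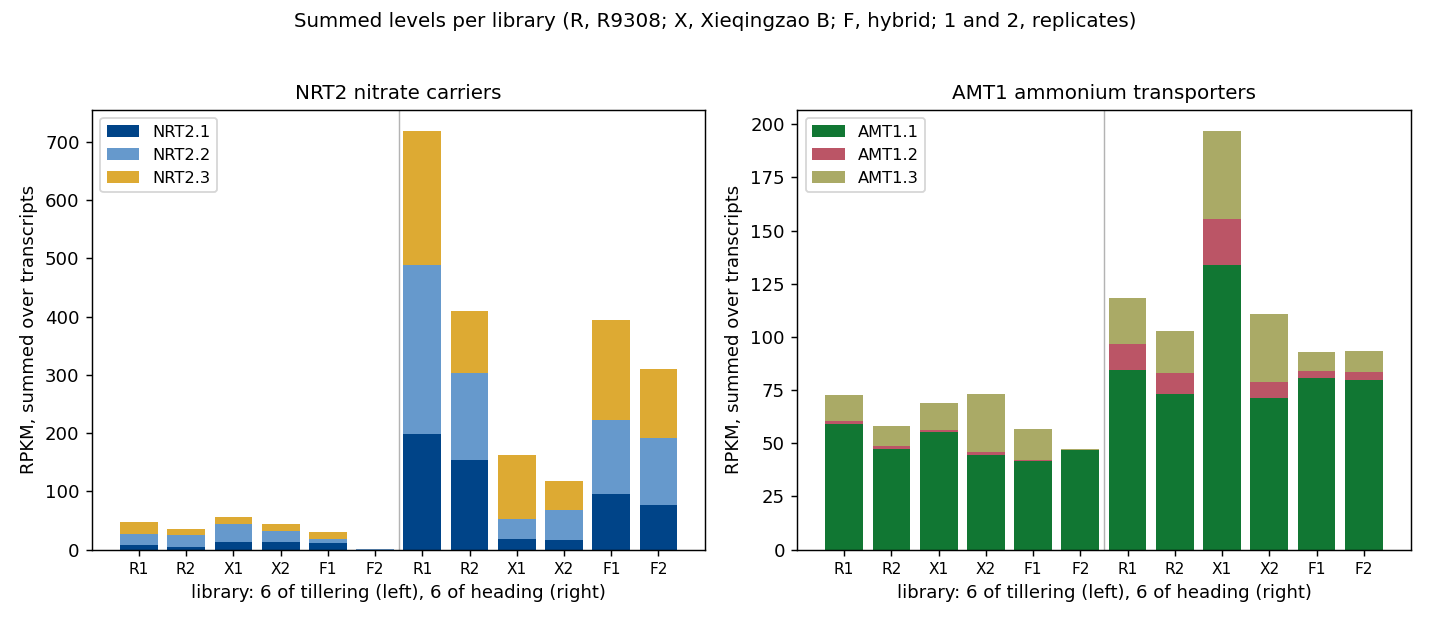
Summed RPKM (y axis, from 0, with different scales in the 2 panels) of the NRT2 carriers (left) and the AMT1 transporters (right) in each of the 12 libraries (x axis), split by locus. The NRT2 sum reaches 719 RPKM in R9308 at heading and 162 RPKM in Xieqingzao B, and the AMT1 sum is highest in Xieqingzao B replicate 1 at 197 RPKM.

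NAR2.1 and the NRT2 sum formed separate clusters by stage, 0.9 to 55.8 RPKM against 117 to 719 RPKM for the sum, so they were compared within each stage. At heading Pearson's r over the 6 libraries was 0.908 on log2(RPKM + 1) (exact permutation p = 0.0153, adjusted over the 4 tests 0.0612) and Spearman's rho was 0.829 (exact permutation p = 0.0583, adjusted 0.0777). Without the 2 libraries farthest from the median, both of Xieqingzao B, r was 0.737. At tillering r was 0.967 (exact permutation p = 0.0403, adjusted 0.0777) and rho 0.714 (exact permutation p = 0.136), but r was 0.0393 without replicate 2 of the hybrid and replicate 1 of Xieqingzao B, so that relation rests on those libraries. All tests were two-sided, and none held after adjustment. The permutations treated the libraries of a stage as independent, although replicate libraries share a genotype. The p-values therefore cannot decide whether NAR2.1 and the NRT2 sum go together across genotypes, and the correlations are descriptions. The level of NAR2.1 relative to the NRT2 sum was 0.332 to 0.79 at heading and 0.577 to 1.34 at tillering.

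**Figure D5:**
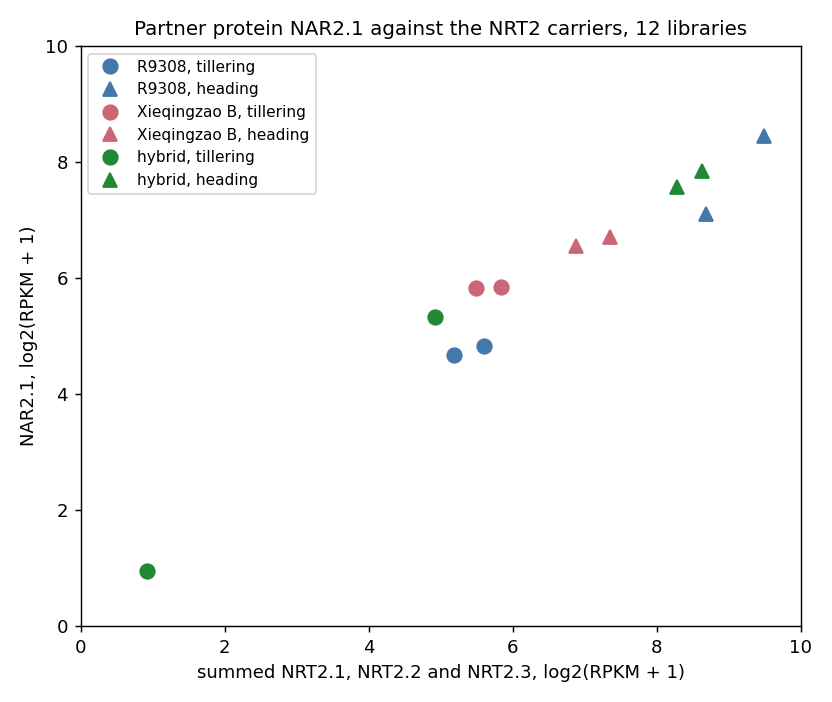
NAR2.1 (y axis) against the summed NRT2 carriers (x axis), both as log2(RPKM + 1), for the 12 libraries (circles, tillering; triangles, heading; colours, genotypes). The heading libraries form a cluster at upper right with r = 0.908, and 1 hybrid library at tillering lies alone at lower left.

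Between single members at heading, NRT2.1 and NRT2.2 had r = 0.957 and NRT2.3 and NAR2.1 had r = 0.898 over the 6 libraries, which share genotype groups. AMT1.2 and AMT1.3 had r = 0.869. AMT1.3 and NRT2.1 had r = -0.581. These are descriptions of 6 points in 3 groups.

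Over all 12 libraries, the transcript of another locus whose log2(RPKM + 1) followed each member most closely was sought among 16680 transcripts with a mean of at least 5 RPKM. For NRT2.1 it was Os07t0535800-01, described as similar to an SRK15 protein (r = 0.964), and for NRT2.2 Os09t0488700-01, a conserved hypothetical protein (r = 0.98). NRT2.3 was followed by Os07t0568600-01, described as similar to a calcium-dependent protein kinase (r = 0.97), and NAR2.1 by Os04t0619000-01 (r = 0.974). For the ammonium transporters they were Os10t0467900-01 with AMT1.1 (r = 0.975), Os03t0595600-00, described as similar to a glutathione S-transferase, with AMT1.2 (r = 0.967), and Os03t0638800-01, described as similar to an ATP binding protein, with AMT1.3 (r = 0.969). The points share stage, and 1 low library weighs on each value.

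Other genes of nitrogen uptake and use were counted whole from lists. Of 9 other ammonium transporter transcripts tested between the stages, none was called in the parents. In the hybrid, where 1.68% of all transcripts were called, 1 was called higher at heading. It was Os05t0468700-01, with 6.54 and 6.18 RPKM at tillering and 31.2 and 40.7 RPKM at heading in the hybrid (log2 2.62 ± 0.33, adjusted p = 0.0318). In the parents its levels were 10.4 to 36.0 RPKM at tillering and 26.6 to 48.1 RPKM at heading. The dual-affinity nitrate transporter NRT1.1A (Os08t0155400-01) had 118 and 124 RPKM in R9308 at tillering and 32.8 and 21.3 RPKM at heading, the opposite order to the NRT2 carriers. In the hybrid this transcript had 18.6 and 19.6 RPKM at tillering and 33.5 and 44.1 RPKM at heading. Another transcript of that locus, Os08t0155400-03, had 25.3 and 15.2 RPKM in the hybrid at tillering and 0 RPKM in its heading libraries. The difference of Os08t0155400-01 in the hybrid is therefore not that of the whole locus. None of the 5 NRT1.1 transcripts tested between the stages, and none of the 3 tested at heading, was called. NRT2.4 (Os01t0547600-00) had at most 16.3 RPKM and NAR2.2 (Os04t0480200-01) at most 10.3 RPKM.

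Of 12 transcripts tested from the list of nitrate and nitrite reduction, 4 were called lower in Xieqingzao B than in R9308 at heading and none higher, with a list median of -0.11 against 0.04 over all transcripts. Over all transcripts 6.36% were called lower. The list was filled by description and also holds transcripts similar to CNX2, a gene of the molybdenum cofactor. A nitrate reductase transcript (Os02t0770800-01) had 23.1 and 22.2 RPKM in R9308, 4.29 and 2.04 RPKM in Xieqingzao B and 13.7 and 14.2 RPKM in the hybrid. It was lower in Xieqingzao B than in R9308 (log2 -2.96 ± 0.37, adjusted p = 0.011) and higher in the hybrid than in Xieqingzao B (2.27 ± 0.36, adjusted p = 0.0263). The ferredoxin-nitrite reductase transcripts Os01t0357100-01, Os01t0357100-02 and Os02t0765900-00 were the other 3 called lower in Xieqingzao B, with log2 differences of -1.35, -1.43 and -2.35. Between the stages, 1 transcript of the list was called, Os08t0468100-01 in the hybrid (3.97 ± 0.79 higher at heading, adjusted p = 0.0489). Of all transcripts 1.68% were called there.

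Among 10 transcripts of ammonium assimilation tested, NADH-dependent glutamate synthase 2 (Os05t0555600-01) was the single one called in any comparison. It had 8.69 and 9.52 RPKM in R9308, 2.75 and 2.42 RPKM in Xieqingzao B and 22.3 and 14.5 RPKM in the hybrid at heading. It was called lower in Xieqingzao B than in R9308 (-1.94 ± 0.29, adjusted p = 0.0158) and higher in the hybrid than in Xieqingzao B (2.97 ± 0.29, adjusted p = 0.0108). Of all transcripts, 6.36% and 5.35% were called in these directions. Os05t0555600-01 was also called higher at heading than at tillering in the hybrid (4.35 ± 0.46, adjusted p = 0.0318), where 1.68% of all transcripts were called. The other transcript of that locus, Os05t0555600-02, had 7.68 and 3.42 RPKM in the hybrid at tillering and 7.73 and 8.66 RPKM at heading. The differences of Os05t0555600-01 are therefore not those of the whole locus. Of the 4 regulator transcripts tested, IDD10 (Os04t0566400-02), a zinc-finger activator of ammonium-responsive genes in rice roots, was called lower at heading in R9308 (-2.09 ± 0.39, adjusted p = 0.049). It had 14.8 and 9.73 RPKM at tillering and 2.47 and 3.00 RPKM at heading in that line.

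The silicon transporter Lsi1 (Os02t0745100-01) had 128 and 125 RPKM in R9308 at tillering and 908 and 777 RPKM at heading, and for Lsi1, the silicon efflux carrier Lsi2 and the metal transporter NRAMP5 both heading libraries lay above both tillering libraries in every genotype. Of the 4 root markers, 3 were called higher at heading in R9308 and 2 in the hybrid. Of all transcripts, 1.2% were called in R9308 and 1.68% in the hybrid, in either direction. RCc3 (Os02t0662000-01), a root-specific gene of unknown function, had 300.0 to 972 RPKM at tillering and 6.41 to 132 RPKM at heading, and was not called. The part of these differences between root samples in the stage values of the members was not tested.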

How the data were processed

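Poly-A RNA of 12 root libraries was sequenced in read pairs. Per the labels, the authors used CASAVA 1.8 and RSEM 1.1.11, which divides reads shared between transcripts, and deposited whole counts per transcript of the rice annotation. The authors also deposited RPKM values, which equal the deposited counts scaled by transcript length and library total (largest relative difference 4.53e-08, tolerance 1e-06). The 18 columns of the authors' own comparisons (log2 fold changes, p-values and false discovery rates) were not used, and 0 other columns of single samples were left out. Columns were matched to libraries by the letters and numbers of their headers and the titles. No 2 libraries held identical counts.

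Counts were tested with edgeR 4.0.16 (quasi-likelihood, TMM, R 4.3.3) in 1 fit of 6 libraries per stage for genotypes and 1 fit of 12 libraries for stages and interactions, with Benjamini-Hochberg adjustment over all transcripts that passed edgeR's filter on low counts. The threshold for a call was an adjusted p of 0.05 or lower together with a log2 fold change of 1 or more in either direction. All tests were two-sided. Levels are RPKM, and correlations used log2(RPKM + 1), a pseudocount of 1. Correlations were run within each stage because the stages form separate clusters. The script was tested on simulated data. A count of 0 was taken as 3 counts for folds, and intervals cover counting error only.

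Every transcript of the 7 loci is named. Other genes of the pathway come from lists made by identifier or description and are named where called or as examples. An NRT1.1 and a glutamate synthase transcript were left out because their descriptions contradict their names. The transcript most like each member had the highest Pearson correlation among transcripts of at least 5 RPKM on average. The members and lists were chosen with earlier results of these data known. Alternatives were DESeq2 1.42.0, edgeR's exact test, no or another filter, library size scaling, a replicate block, other sets of libraries, sums per locus and leaving out each library.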

Additional observations from a re-analysis of the deposited data

Results flagged for a closer look

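For 5 transcripts both libraries of 1 genotype lay above both of another at 1 stage and below them at the other stage. The share of all transcripts that did so is not given, so whether 5 is many cannot be said. The differences of the stage effects were tested as interactions and none was called by edgeR's quasi-likelihood test. On the log2 scale, the hybrid minus Xieqingzao B gave 3.63 for NRT2.1 (adjusted p = 0.407), 4.31 for NRT2.2 (0.236), 2.27 for NRT2.3 (0.469) and 2.7 for NAR2.1 (0.458). Xieqingzao B minus R9308 gave -4.53 for NRT2.1 (adjusted p = 0.395) and -2.55 for NAR2.1 (0.574). The hybrid minus R9308 gave 1.01 for AMT1.1 by its transcript Os04t0509600-01 (adjusted p = 0.349). With both AMT1.1 transcripts summed, the hybrid (80.45 and 79.75 RPKM) and R9308 (84.39 and 73.05 RPKM) overlapped at heading. The 5 values with the hybrid include its replicate 2 at tillering, in which 6 of the 9 transcripts were at least 8-fold below replicate 1. Without that library the hybrid minus Xieqingzao B gave 2.61 for NRT2.1, 3.33 for NRT2.2, 1.33 for NRT2.3 and 1.72 for NAR2.1, and the hybrid minus R9308 gave 0.64 for AMT1.1, with adjusted p between 0.155 and 0.504.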

How the results depend on the processing

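Each count of called members is out of 9 transcripts unless counts were summed, and its main value is given in the report. With counts summed per locus it is out of 7 loci, and with NRT2.1 and NRT2.2 summed that pair counts as 1. The shares of all transcripts called under the alternatives below are not given here. The counts thus show how far the calls moved, and not how the members compare with other transcripts. DESeq2 called 2 in the hybrid against R9308 at heading, 5 in the hybrid against Xieqingzao B at heading, 5, 3 and 6 between the stages in R9308, Xieqingzao B and the hybrid, and 1 in the stage change between genotypes. The exact test called 2, 4, 3, 1 and 4 in the first 5 of these. With counts summed per locus, 1 was called in the hybrid against R9308 at heading and 2 between the stages in the hybrid. With NRT2.1 and NRT2.2 summed, 1 was called in Xieqingzao B against R9308 at heading, the summed pair itself in place of its separate transcripts. In 1 fit of all 12 libraries, 0 were called in either heading comparison with Xieqingzao B.

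Leaving out 1 library gave 0 to 3 calls in the hybrid against Xieqingzao B and 1 to 3 in Xieqingzao B against R9308 at heading, 0 to 5, 0 to 1 and 0 to 8 between the stages in R9308, Xieqingzao B and the hybrid, and 0 to 6 in the stage change. The 8 and 6 came without replicate 1 of the hybrid at tillering, which leaves the low library alone in its group. The interaction of the hybrid against R9308 ranged from -1.94 to 8.98 for NRT2.1 (Os02t0112100-00) and from -1.57 to 3.11 for AMT1.3 (Os02t0620600-01), and that of AMT1.3 against Xieqingzao B from -1.39 to 3.25, each with its high value called without that library. All tillering comparisons stayed at 0, and other filters or scaling by library size changed no count beyond 1.5 times. Of 1812 recomputed log2 fold changes, 3 were called with the other sign and 49 had the other sign with no call. Scaling RPKM by TMM moved 7 of 84 group levels by more than 1 SD, and shares of counts moved 7 of 30 group shares. Depth limits AMT1.2 most, with 0 to 32 counts per library at tillering.

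The replicate numbers do not pair the samples (correlations of deviations between genotypes -0.355 to 0.0428). The -0.355 was between Xieqingzao B and the hybrid at tillering, whose libraries thus deviated together in crossed order of their numbers. The source of this was not tested. With the replicate block, 1 member was called in each heading comparison with Xieqingzao B. With the numbers of Xieqingzao B crossed, an alternative chosen after seeing the data, 3 were called in the hybrid against Xieqingzao B.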
